A study of Ovis aries with 3 samples.

Results

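ZFP36, TNFAIP3 and NFKBIA are 3 genes that cells switch on during an inflammatory signal and whose products shut that signal down. They are described here by diet and cell class in the rumen epithelium of Hu sheep lambs. They were found by symbol in the gene lists of all 3 libraries, as ENSOARG00000006068, ENSOARG00000000569 and ENSOARG00000007502, and are 3 of 26247 genes listed. They were chosen by their levels in these same libraries, which were already known to differ between milk-only and solid-feed keratinocytes, so the levels are a description and carry no test.

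NF-kB is a transcription factor held in the cytoplasm by inhibitor proteins until cytokines or microbial products trigger the destruction of the inhibitor. NFKBIA encodes that inhibitor (IkB-alpha), and NF-kB itself induces it, so fresh inhibitor ends the response. TNFAIP3 encodes A20, a ubiquitin-editing enzyme that acts upstream on the signalling complexes of TNF, interleukin-1 and Toll-like receptors and is also induced by NF-kB. ZFP36 encodes tristetraprolin, which binds AU-rich elements in cytokine messages and recruits the deadenylation machinery that destroys them, and it is also induced within minutes by many stimuli as an immediate early gene. The rumen epithelium is a stratified keratinocyte sheet in contact with the fermenting microbiota, and lymphocytes and macrophages within it are sources of such signals.

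The lambs were Hu sheep, 42 days old, and received milk with a concentrate starter, milk with alfalfa hay, or milk only. Each diet was represented by 1 droplet single-cell RNA library, and the labels do not say how many lambs went into it. Cells of every group were released from minced tissue by repeated trypsin digestion at body warmth. With 1 library per diet, diet cannot be told apart from lamb, preparation and library, and all intervals below are 95% intervals that cover counting error only.

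The concentrate, hay and milk-only libraries held 60220174, 56861548 and 63057979 UMIs (unique molecular identifiers, each a counted transcript), in 9214, 9543 and 7032 barcodes. Filters kept 4891 concentrate, 7031 hay and 3850 milk-only cells, whose median depths were 8050, 5887 and 11021 UMIs. Of the 12 general keratinocyte markers that the gene lists name, 10 stood above 20 CPM in the keratinocytes of each library, where CPM is a gene's UMIs scaled to a common total of UMIs in the summed cells (counts per-million). Keratinocytes numbered 4683 with concentrate, 6997 with hay and 3433 with milk only, in 11 of 15 clusters. Kept cells of the libraries shared 8 barcode strings between concentrate and hay, 2 between concentrate and milk only and 7 between hay and milk only.

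In keratinocytes all 3 genes were about an order of magnitude lower in both solid-feed libraries than with milk only. ZFP36 stood at 197 CPM with concentrate (193 to 201), 149 CPM with hay (145 to 153) and 1942 CPM with milk only (1929 to 1954). TNFAIP3 stood at 3.93 CPM with concentrate (3.37 to 4.56), 4.19 CPM with hay (3.62 to 4.83) and 61.0 CPM with milk only (58.8 to 63.3). NFKBIA stood at 127 CPM with concentrate (124 to 131), 132 CPM with hay (129 to 136) and 1168 CPM with milk only (1159 to 1178). The milk-only library was the high one for each gene, and the concentrate and hay levels lay close together.

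Set against milk only, ZFP36 was 9.86-fold lower with concentrate (9.64 to 10.1) and 13.0-fold lower with hay (12.7 to 13.4). TNFAIP3 was 15.5-fold lower with concentrate (13.3 to 18.2) and 14.6-fold lower with hay (12.6 to 17.0). NFKBIA was 9.19-fold lower with concentrate (8.94 to 9.44) and 8.82-fold lower with hay (8.59 to 9.06). Of the genes with at least 10 CPM in at least 1 of the libraries compared, 6.41% were at least 2-fold lower with concentrate than with milk only, and 9.95% were at least 2-fold lower with hay. All 3 members were among them in both comparisons, which the choice of the members fixes. For ZFP36, 46 of 4726 measured genes had a ratio as low or lower with concentrate, and 51 of 4592 with hay. These 2 comparisons share the milk-only library.

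Between the solid feeds the summed levels differed by less than 2-fold for each member. ZFP36 was 1.32 times as high with concentrate as with hay (1.28 to 1.36). NFKBIA was at 0.961 of the hay level with concentrate (0.926 to 0.996), and TNFAIP3 at 0.938 (0.760 to 1.16), an interval that includes equality. At least a 2-fold difference in either direction was seen for 3.61% of measured genes and for 0 of the 2 members that reached 10 CPM there, TNFAIP3 being below it in both. These values depended on how cells were weighted and grouped. With the mean of per-cell shares in place of sums, the log2 ratio of concentrate to hay was 0.99 for ZFP36, and it turned to 0.22 for TNFAIP3 and 0.23 for NFKBIA. Within single clusters ZFP36 with concentrate was 2.27 times the hay level in cluster 2, led by HSPA6 and FOSB (2.18 to 2.35), and 3.23 times in cluster 4, a cycling cluster (2.94 to 3.54). Over all keratinocytes outside the clusters led by early genes it stood at 46.2 CPM with concentrate and 47.1 CPM with hay.

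**Figure D1:**
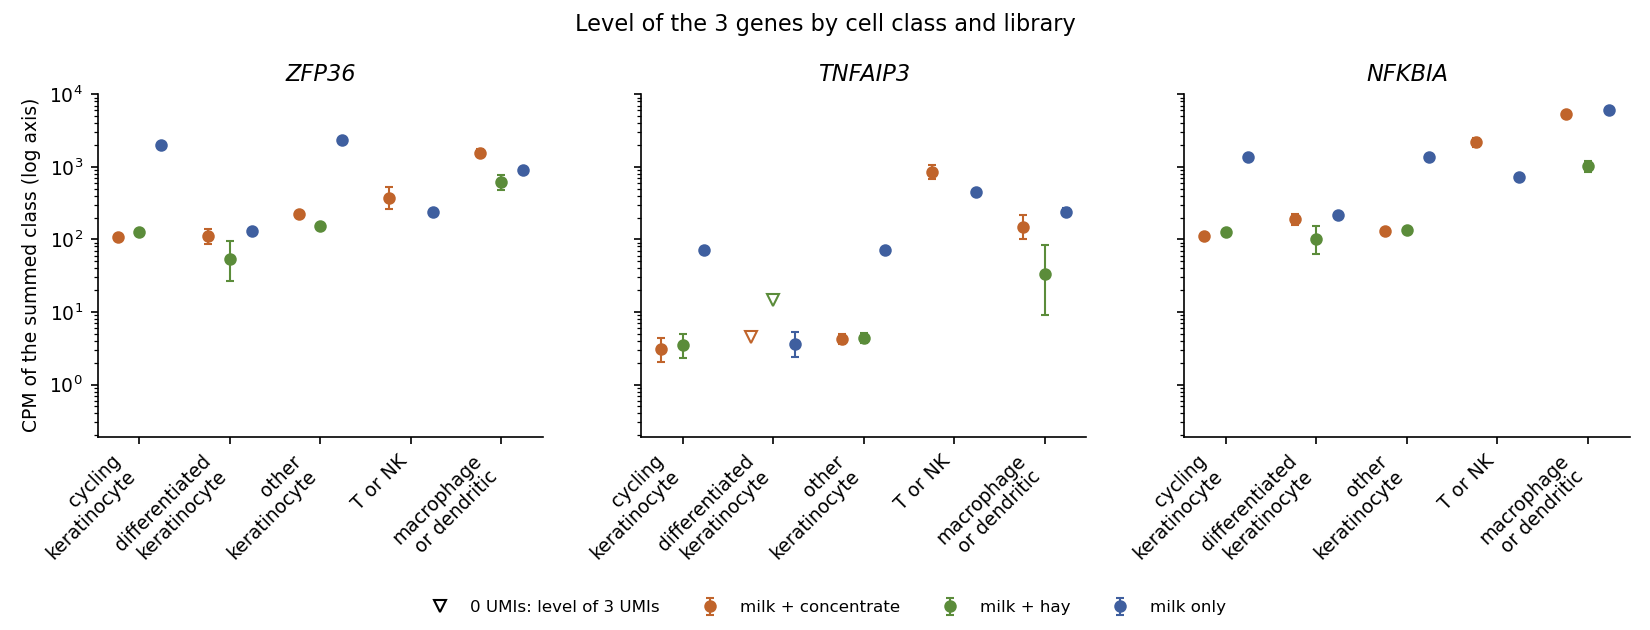
Level of each gene in CPM over the summed cells (log axis) by cell class, for concentrate, hay and milk-only libraries from left to right; bars are exact Poisson 95% intervals, and open triangles mark the level that 3 UMIs would give where 0 were counted. Hay T or NK cells (3 cells) are left out. In cycling and other keratinocytes the milk-only point lies far above the other 2, whereas in T or NK cells the concentrate point is the higher for each gene.

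The number of cells in which the genes were found followed the same order as the levels for milk only against the others. ZFP36 was found in 28.0% of keratinocytes with concentrate, 25.3% with hay and 62.1% with milk only. Cells differed in depth, so each was thinned to 2000 UMIs, which left out 69 keratinocytes with concentrate, 0 with hay and 219 with milk only. At that depth ZFP36 was found in 15.8% of cells with concentrate (14.8 to 16.9), 14.3% with hay (13.5 to 15.2) and 44.1% with milk only (42.3 to 45.8).

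TNFAIP3, a sparse transcript, was found in 0.954% of thinned keratinocytes with concentrate, 0.743% with hay and 9.52% with milk only, and in 3.01%, 2.26% and 23.8% of them at full depth. NFKBIA was found in 20.8% of thinned keratinocytes with concentrate, 17.7% with hay and 53.7% with milk only, and at full depth in 51.2%, 38.1% and 79.3%. Against milk only, the share of positive cells differed less than the level did for each gene. Between the solid feeds, the share of NFKBIA was higher with concentrate than with hay, whereas its level was slightly lower. The TNFAIP3 share was also higher with concentrate, but it rests on few positive cells. The interval of the TNFAIP3 level ratio included equality. UMIs per positive cell also differed, and for ZFP36 at full depth averaged 6.69 with concentrate, 3.80 with hay and 43.3 with milk only. No cell class in this tissue is known to lack these genes. A transcript of other cells was therefore used to show foreign RNA in keratinocyte barcodes. Foreign RNA can be free RNA or come from doublets, which were not called. IL17F, a lymphocyte cytokine, was found in 0.0427% of keratinocytes with concentrate, 0.114% with hay and 1.95% with milk only, against 40.0% of T or NK-like cells with concentrate and 41.6% with milk only. At full depth the median cell held 8278, 5897 and 11663 UMIs in concentrate, hay and milk-only keratinocytes and 2083.5 and 4794 UMIs in concentrate and milk-only T or NK-like cells.

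**Figure D2:**
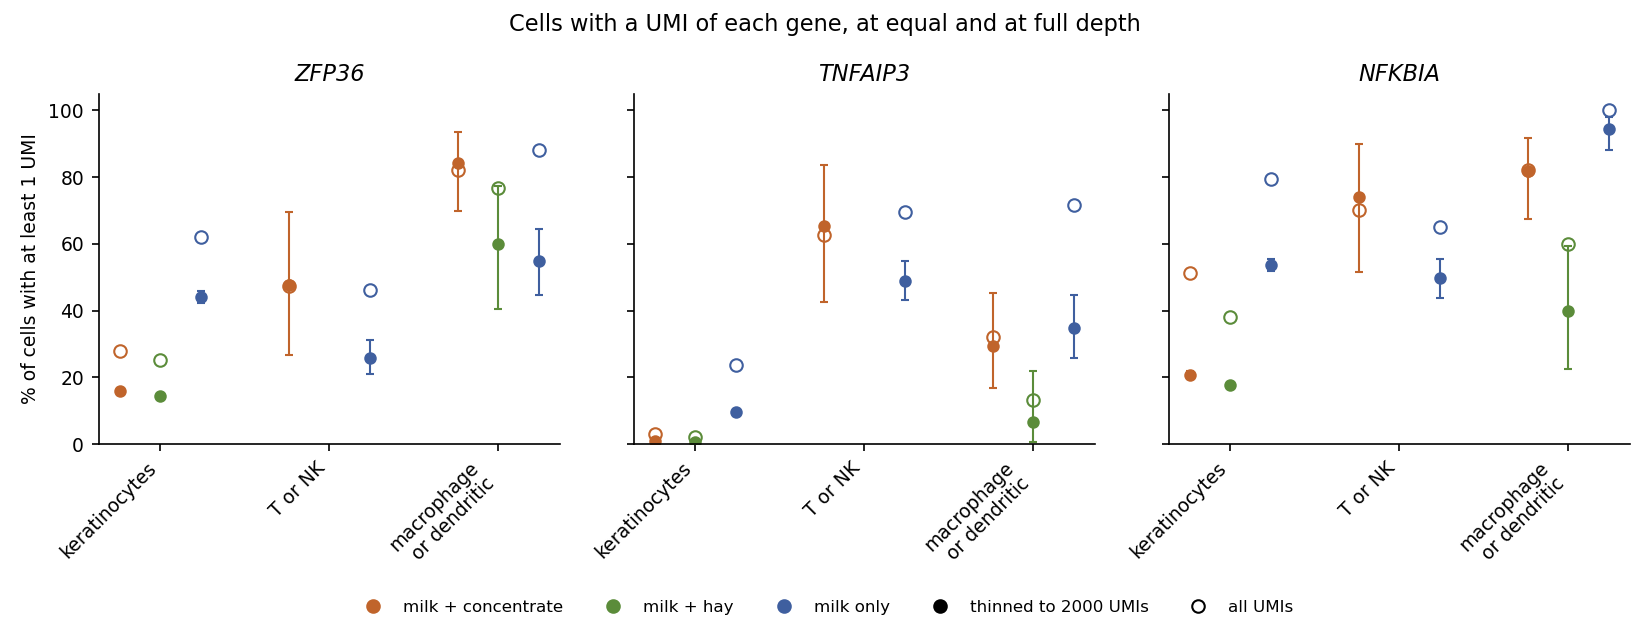
Share of cells with at least 1 UMI of each gene (%) in keratinocytes, T or NK-like and macrophage or dendritic-like cells, for concentrate, hay and milk-only libraries from left to right. Filled points are cells thinned to 2000 UMIs with exact Clopper-Pearson 95% intervals and open points are all UMIs. Thinning lowers the milk-only keratinocyte share of ZFP36 to 44.1%, which is still above the concentrate and hay shares.

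The UMIs of the 3 genes were unevenly spread over keratinocytes. Cells with at least 10 ZFP36 UMIs made up 6.45% of keratinocytes with concentrate, 2.62% with hay and 34.3% with milk only. The highest count in a single keratinocyte was 67 ZFP36 UMIs with concentrate, 37 with hay and 307 with milk only. For TNFAIP3 the highest counts were 5, 8 and 35 UMIs in the concentrate, hay and milk-only libraries, and 0, 0 and 53 cells held 10 or more. Taking the 468, 700 and 343 cells richest in ZFP36, about 10 in 100 of each library's keratinocytes, 83.9% of the ZFP36 UMIs with concentrate, 80.4% with hay and 48.3% with milk only came from them. A small group of cells thus carried most ZFP36 with solid feed, and a broader group carried it with milk only. For NFKBIA, as many of its richest cells held 51.1% of its UMIs with concentrate, 60.7% with hay and 51.8% with milk only. For TNFAIP3 they held 100%, 100% and 76.7%, as its positive cells with solid feed were fewer than that number. Such shares also depend on how sparse a gene's UMIs are, and that part was not tested.

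Those cells fell into a few clusters. Cluster 5 was almost wholly a milk-only cluster (1102 of 1112 cells), and its leading genes were ZFP36, RCAN1 and ATF3. It held 32.1% of milk-only keratinocytes and 87.7% of their ZFP36 UMIs, 85.3% of their TNFAIP3 UMIs and 79.5% of their NFKBIA UMIs. In it ZFP36 stood at 4984 CPM, TNFAIP3 at 152 CPM and NFKBIA at 2721 CPM. ZFP36 helped to define this cluster, so these levels describe it and test nothing. When the members, the immediate early genes and the other feedback genes were withheld from clustering, a milk-only cluster of 978 cells still held 82.0% of the milk-only ZFP36 UMIs, at 5730 CPM.

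Cluster 5 was keratinocyte-like by its keratin and by the near absence of immune markers. KRT15, a basal keratin of this tissue, stood at 9603 CPM in its milk-only cells. The 14 T or NK markers with a symbol summed to 32.8 CPM there, with 3 of them at 0, against 5890 CPM in milk-only T or NK-like cells. The 16 macrophage or dendritic markers summed to 9.43 CPM, with 5 at 0, against 14450.5 CPM in milk-only macrophage or dendritic-like cells.

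With solid feed the counterpart was cluster 2, led by HSPA6, FOSB and CRYAB, which held 847 concentrate cells, 1448 hay cells and 8 milk-only cells. ZFP36 stood at 1296 CPM in its concentrate cells and 572 CPM in its hay cells. TNFAIP3 stood at 17.6 CPM with concentrate and 13.4 CPM with hay, and NFKBIA at 398 and 355 CPM with concentrate and hay. This cluster held 76.5% of ZFP36 UMIs in 18.1% of keratinocytes with concentrate, and 73.7% in 20.7% with hay. For NFKBIA the shares were 36.4% with concentrate and 51.4% with hay, since NFKBIA UMIs were spread more widely. The grouping of the hay cells depended on the clustering, more than that of the concentrate cells did. With the members, the immediate early genes and the other feedback genes withheld, the cluster with the highest ZFP36 level held 933 concentrate cells with 66.9% of that library's ZFP36 UMIs, and 173 hay cells with 6.59%. With those genes kept and a finer resolution of 1.2, it held 703 concentrate cells with 67.8% and 136 hay cells with 7.14%. At a coarser resolution of 0.3 it held 1271 concentrate cells with 74.8% and 2554 hay cells with 75.2%.

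**Figure D3:**
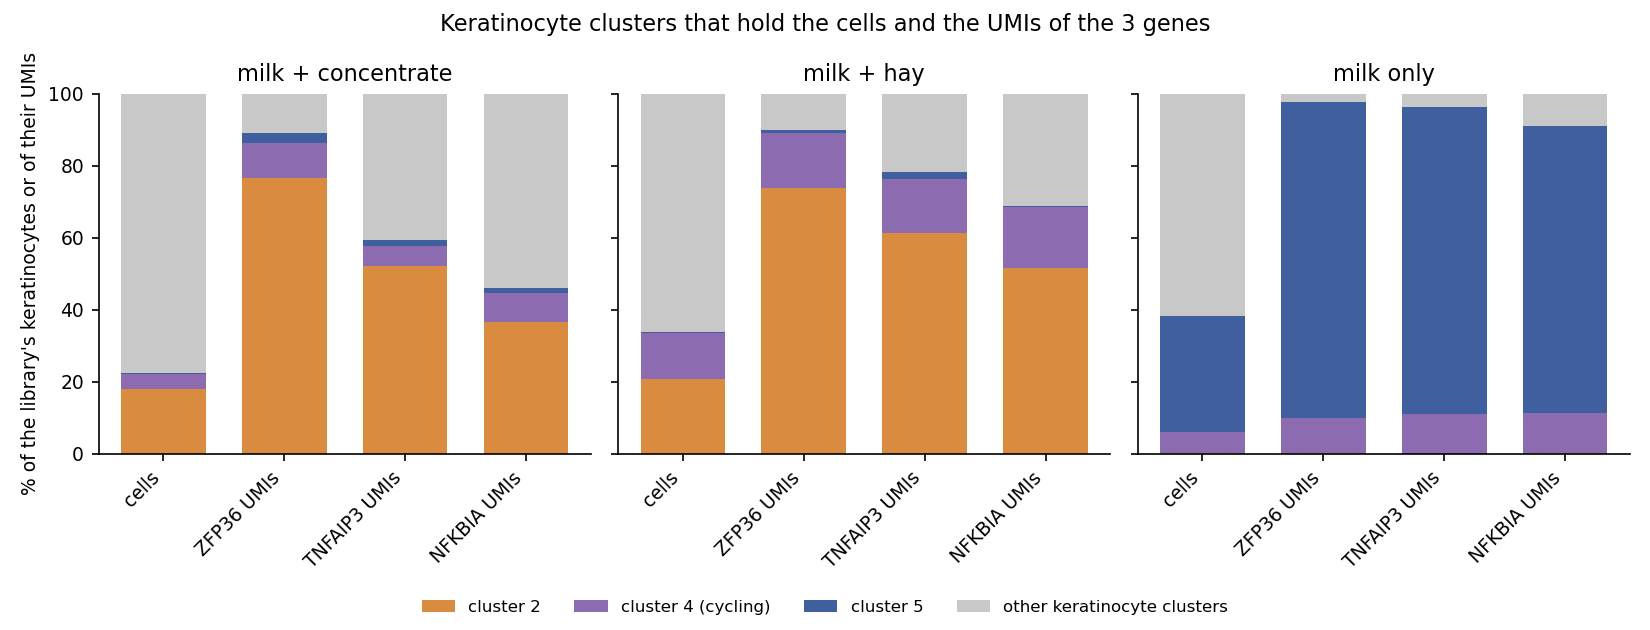
Stacked bars, starting at 0, of the share (%) of each library's keratinocytes (left bar) and of their ZFP36, TNFAIP3 and NFKBIA UMIs that lay in cluster 2, cluster 4, cluster 5 and the other keratinocyte clusters, with concentrate, hay and milk-only libraries from left to right. Cluster 2 holds most ZFP36 UMIs with concentrate (76.5%) and hay (73.7%), and cluster 5 holds 87.7% with milk only.

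Cycling keratinocytes were named from cell cycle genes and not from the members, and showed the difference between libraries as well. They are part of the keratinocytes by which the members were chosen, so their levels are no separate support. ZFP36 stood at 109 CPM in cycling cells with concentrate (666 cells), 128 CPM with hay (916 cells) and 2012 CPM with milk only (205 cells). TNFAIP3 stood at 3.08, 3.45 and 70.5 CPM in the concentrate, hay and milk-only cycling cells, and NFKBIA at 111, 125 and 1388 CPM. All 3 members were at least 2-fold lower with solid feed, beside 7.7% of measured genes in cycling cells with concentrate and 12.7% with hay. Cluster 9 supplied most cycling cells of the concentrate library, and cluster 4 those of the hay and milk-only libraries. Within cluster 4, ZFP36 stood at 417 CPM with concentrate (189 cells), 129 CPM with hay (904 cells) and 2040 CPM with milk only (203 cells).

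Differentiated keratinocytes, the outer layers marked by KRTDAP and CNFN, had low levels whatever the diet. ZFP36 stood at 112 CPM with concentrate (87.8 to 140.0, 36 cells), 52.9 CPM with hay (26.4 to 94.6, 24 cells) and 129.5 CPM with milk only (122 to 138, 680 cells). NFKBIA stood at 191, 101 and 219 CPM in the concentrate, hay and milk-only cells. TNFAIP3 had 0 UMIs with concentrate and with hay, where 3 UMIs would have given 4.47 and 14.4 CPM, and stood at 3.61 CPM with milk only. A TNFAIP3 difference was therefore not detectable in these cells at this depth.

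The remaining keratinocyte clusters were quiet. Cluster 1, the main concentrate cluster, led by FABP4, had ZFP36 at 25.6 CPM, TNFAIP3 at 1.96 CPM and NFKBIA at 80.8 CPM in its 2613 concentrate cells. Cluster 0, the main hay cluster, led by FBP1, had 23.5, 1.57 and 63.1 CPM of ZFP36, TNFAIP3 and NFKBIA in its 2853 hay cells. Cluster 6, a milk-only cluster led by GPNMB and AQP5, had 56.7, 4.30 and 166 CPM in its 855 milk-only cells. For each gene the quiet milk-only cells of cluster 6 thus stood above the quiet solid-feed cells. RNA of the high cells in the same library, free or in doublets, was not separated from this. IL17F, which keratinocytes are not known to make, stood at 11.5 CPM in milk-only keratinocytes, 0.157 CPM with concentrate and 0.444 CPM with hay. The 548 IL17F UMIs of milk-only keratinocytes lay in 67 cells, whereas 212 UMIs of IL1B, a macrophage cytokine, lay in 155 cells. The IL17F level is therefore not a measure of free RNA alone, and the part of doublets was not tested.

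Cluster 8, led by DLK2 and DCN, was the quiet cluster with at least 100 cells from more than 1 diet that included milk only. ZFP36 stood at 36.6 CPM in its 136 concentrate cells and 78.2 CPM in its 556 milk-only cells. NFKBIA stood at 108 CPM with concentrate and 205 CPM with milk only. TNFAIP3 had 0 UMIs in the concentrate cells and stood at 3.54 CPM in the milk-only cells.

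The difference between libraries over all keratinocytes depended on which clusters were counted. With cluster 5 left out, ZFP36 was 1.90-fold lower with concentrate than with milk only and 2.46-fold lower with hay, TNFAIP3 3.52-fold and 3.32-fold lower with concentrate and hay, and NFKBIA 2.89-fold and 2.75-fold lower with concentrate and hay. In that comparison 2 of 3 members were at least 2-fold lower with concentrate, beside 5.19% of measured genes, and 3 of 3 with hay, beside 9.04%. Leaving out cluster 5 removed 7 concentrate, 3 hay and 1102 milk-only cells. With clusters 2 and 5 both left out, ZFP36 stood at 46.2 CPM with concentrate, 47.1 CPM with hay and 362 CPM with milk only.

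Among non-cycling, non-differentiated keratinocytes the order for ZFP36 turned when cluster 5 was left out and cluster 2 was kept. That selection takes out the high milk-only cells and keeps the high solid-feed cells, so the turn is not read as a diet difference. Cluster 2 held 76.5% of the keratinocyte ZFP36 UMIs with concentrate and 73.7% with hay. In this selection ZFP36 stood at 215 CPM with concentrate, 153 CPM with hay and 67.4 CPM with milk only. Concentrate was thus 3.19 times (3.01 to 3.39) and hay 2.27 times (2.13 to 2.41) the milk-only level. TNFAIP3 stood at 4.15, 4.27 and 4.16 CPM with concentrate, hay and milk only. NFKBIA stayed lower with solid feed, at 128 CPM with concentrate, 134 CPM with hay and 178 CPM with milk only. Of the ZFP36 UMIs in milk-only keratinocytes, cluster 5 held 87.7%, cycling cluster 4 held 9.87% and differentiated cluster 7 held 1.09%, so most of what cluster 5 left was in cycling cells.

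**Figure D4:**
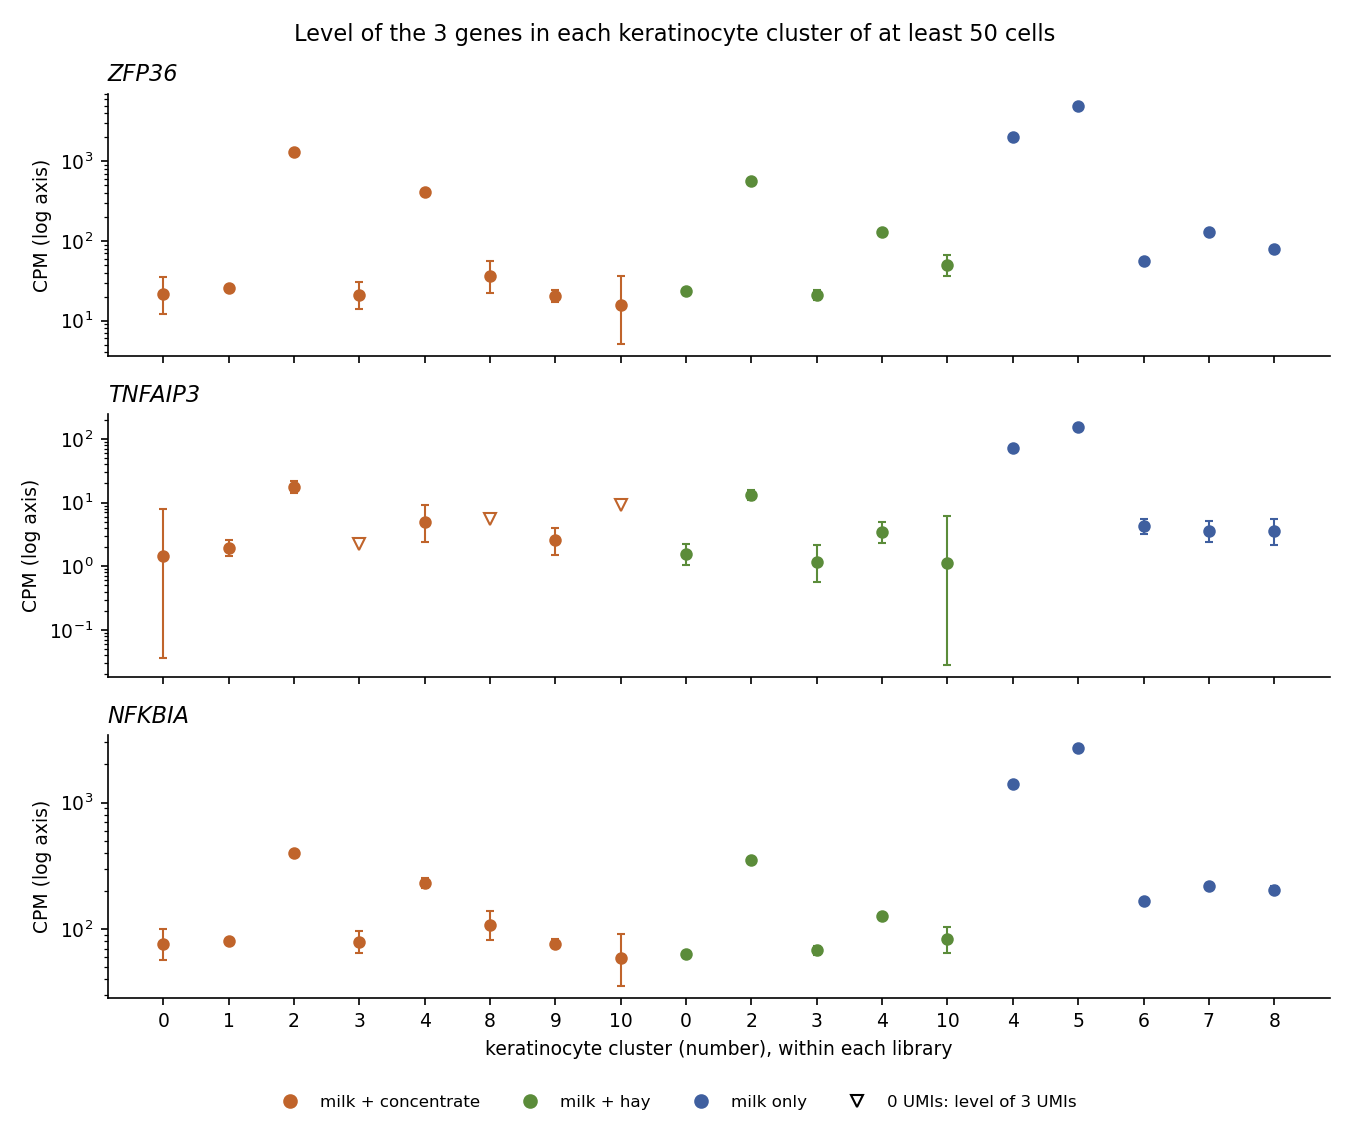
Level of each gene in CPM (log axis) in every keratinocyte cluster with at least 50 cells in a library, with the concentrate clusters at the left, hay in the middle and milk only at the right; bars are exact Poisson 95% intervals and open triangles mark the level of 3 UMIs where 0 were counted. Clusters 4 and 5 of the milk-only library stand apart, at 2040 and 4984 CPM of ZFP36, and cluster 2 is the highest in both solid-feed libraries.

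Depth moved with the member levels inside a library. When the keratinocytes of each library were split into 3 groups of equal size by UMIs per cell, ZFP36 with concentrate stood at 712, 146 and 69.4 CPM from the shallowest to the deepest group. With hay it stood at 206, 164 and 115 CPM, and with milk only at 2373, 3337 and 1212 CPM. The groups were set within each library, so groups of the same rank were not of like depth. Their median depths were 4874, 8278 and 13654 UMIs with concentrate and 4163.5, 5894.5 and 8503 UMIs with hay. With milk only they were 3778, 11661.5 and 21582 UMIs. The milk-only level was the highest at each rank, and by rank the concentrate level exceeded the hay level only in the shallowest group. At like depth, the middle concentrate group stood at 146 CPM and the deepest hay group at 115 CPM. The part of depth in the concentrate level was not tested.

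Within single keratinocytes ZFP36 and NFKBIA varied together, and which library had the closest coupling depended on the measure. On cells thinned to 2000 UMIs, the Pearson correlation of their log counts was 0.45 with concentrate (4614 cells), 0.37 with hay (6997 cells) and 0.81 with milk only (3214 cells). Both genes were found in 7.98% of cells with concentrate against 3.29% if they were independent, in 5.96% against 2.54% with hay, and in 37.3% against 23.7% with milk only. The observed share was thus 2.42 times the expected one with concentrate, 2.34 times with hay and 1.58 times with milk only. The correlation was highest with milk only, whereas this measure was lowest there. The cells of a library share depth, tissue and preparation, so these are descriptions of 3 libraries. Among milk-only cells with ZFP36, 84.7% also had NFKBIA, against 29.3% of those without it.

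The coupling depended on the cluster. In milk-only cells it was 0.83 in cycling cluster 4 (200 cells) and 0.49 in cluster 5 (1102 cells), where 91.9% of cells had both genes. In cluster 2 it was 0.41 with concentrate and 0.36 with hay. In the quiet clusters it ran from -0.08 to 0.16, at counts too sparse to read. TNFAIP3 and ZFP36 correlated at 0.21 with concentrate, 0.14 with hay and 0.43 with milk only over all keratinocytes, and at 0.24 in milk-only cells of cluster 5.

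T or NK-like cells, with IL17F and PTPRC among their leading genes, numbered 40 with concentrate, 3 with hay and 305 with milk only. In them the members were higher with concentrate than with milk only, the other way round from keratinocytes. ZFP36 stood at 374 CPM with concentrate (261 to 520) and 236 CPM with milk only (212 to 261), a ratio of 1.59 (1.09 to 2.25). TNFAIP3 stood at 855 CPM with concentrate (678 to 1065) and 444 CPM with milk only (412 to 478), a ratio of 1.93 (1.51 to 2.43). NFKBIA stood at 2192 CPM with concentrate (1902 to 2513) and 734 CPM with milk only (693 to 777), a ratio of 2.99 (2.56 to 3.47). At least 2-fold higher levels with concentrate were seen for 17.6% of measured genes in these cells, and for 1 of the 3 members. The median log2 ratio of the 4126 measured genes was 0.23. Of them, 1226 had a ratio at or above that of ZFP36, 802 of TNFAIP3 and 211 of NFKBIA. The 3 hay cells held 1 ZFP36, 0 TNFAIP3 and 2 NFKBIA UMIs.

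The concentrate T or NK-like cells were shallower, at a median of 2083.5 UMIs against 4794 UMIs with milk only. They also held more cycling transcripts, as the 8 cycling markers with a symbol summed to 1454 CPM with concentrate and 269 CPM with milk only. Among cells with at least 2263 UMIs, a limit chosen after seeing the data that left 16 with concentrate and 288 with milk only, the NFKBIA ratio was 2.81 (2.28 to 3.43), that of TNFAIP3 1.45 (0.992 to 2.06) and that of ZFP36 1.44 (0.828 to 2.33), the last 2 with intervals that include equality. Some keratinocyte RNA was present in the T or NK-like cells, with KRT15 at 182 CPM with concentrate and 343 CPM with milk only. In keratinocytes KRT15 stood at 7878 CPM with concentrate and 7973 CPM with milk only. Keratinocyte RNA was not subtracted, and its part in the member levels of T or NK-like cells was not tested. Set against keratinocytes of the same library, T or NK-like cells with concentrate were higher in all 3 genes, at 374 against 197 CPM of ZFP36, 855 against 3.93 CPM of TNFAIP3 and 2192 against 127 CPM of NFKBIA. With milk only they were higher in TNFAIP3, at 444 against 61.0 CPM, and lower in ZFP36, at 236 against 1942 CPM, and in NFKBIA, at 734 against 1168 CPM.

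Lymphocytes with an IL17F UMI carried more TNFAIP3 and less ZFP36 than those without. In milk-only cells TNFAIP3 stood at 558 CPM in the 127 cells with IL17F (504 to 617) and 359 CPM in the 178 cells without it (321 to 400). ZFP36 stood at 171 CPM with IL17F (142 to 205) and 284 CPM without it (250 to 320). NFKBIA stood at 747 CPM with IL17F and 724 CPM without it, with overlapping intervals. Cells with IL17F were deeper, at a median of 5018 UMIs against 4336 UMIs without it. In milk-only T or NK-like cells the members were nearly uncoupled, with thinned correlations of 0.19 for ZFP36 and NFKBIA, 0.05 for TNFAIP3 and NFKBIA and -0.02 for ZFP36 and TNFAIP3 (294 cells).

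Macrophage or dendritic-like cells, whose leading genes included CTSS and C1QA, had the highest NFKBIA levels of the classes with at least 20 cells. NFKBIA stood at 5315 CPM with concentrate (50 cells), 1019 CPM with hay (30 cells) and 6126 CPM with milk only (109 cells). TNFAIP3 stood at 151 CPM with concentrate (101 to 216), 32.9 CPM with hay (8.95 to 84.1) and 242 CPM with milk only (218 to 268). ZFP36 stood at 1567 CPM with concentrate, 616 CPM with hay and 893 CPM with milk only. In these cells hay was the low library for each gene, and concentrate stood above milk only for ZFP36 and below it for TNFAIP3 and NFKBIA. The make-up of the class also differed between libraries. The 8 cycling markers with a symbol summed to 1043, 1232 and 378 CPM with concentrate, hay and milk only, and C1QA stood at 3156, 2350 and 1501 CPM. The part of this in the member levels was not tested.

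Against milk only, hay macrophage or dendritic-like cells were at 0.166 of the NFKBIA level (0.138 to 0.199), 0.136 of the TNFAIP3 level (0.0368 to 0.351) and 0.690 of the ZFP36 level (0.539 to 0.871). The TNFAIP3 value rests on 4 UMIs. At least 2-fold lower levels with hay were seen for 11.6% of measured genes and for 2 of the 3 members. Concentrate cells were at 1.75 of the ZFP36 level (1.54 to 1.99), 0.622 of the TNFAIP3 level (0.411 to 0.908) and 0.867 of the NFKBIA level (0.813 to 0.925). A 2-fold difference in either direction was seen there for 27.8% of measured genes and for 0 of the 3 members. Median depth was 3614.5 UMIs with concentrate, 3598 UMIs with hay and 13599 UMIs with milk only, and KRT15 stood at 981, 879 and 1408 CPM, so some keratinocyte RNA was present in all 3.

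IL1B, an NF-kB target and AU-rich message on which ZFP36 is known to act in mouse and human cells, was far apart between these libraries. It stood at 1490 CPM in macrophage or dendritic-like cells with concentrate, 181 CPM with hay and 10595 CPM with milk only. The order of the libraries was that of TNFAIP3 and NFKBIA, with hay lowest and milk only highest, and not that of ZFP36. IL1B was also the leading gene of this class and among the markers that named it. A link between IL1B and the members was not tested. In milk-only cells of this class TNFAIP3 and NFKBIA correlated at 0.37 on thinned counts, and ZFP36 correlated with NFKBIA at 0.19 and with TNFAIP3 at 0.16 (106 cells).

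The mix of the 3 genes differed between classes. No gene length was applied, so shares are compared between classes and not read as the abundance of a gene against another. TNFAIP3 made up 25.0% of the 3 genes' UMIs in T or NK-like cells with concentrate and 31.4% with milk only, against 2.14%, 1.97% and 3.33% in macrophage or dendritic-like cells with concentrate, hay and milk only. In keratinocytes as a whole it made up less in each library, 1.92% with milk only being the highest of the 3 shares. ZFP36 made up 75.7% in the concentrate cells of cluster 2, 60.8% in its hay cells and 63.4% in the milk-only cells of cluster 5. Its share was lower in quiet clusters, at 23.6% for concentrate cells of cluster 1, 26.6% for hay cells of cluster 0 and 24.9% for milk-only cells of cluster 6, with NFKBIA most of the rest. The quiet keratinocytes of the 3 diets thus had nearly the same mix, and the high clusters were shifted to ZFP36 in each diet.

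**Figure D5:**
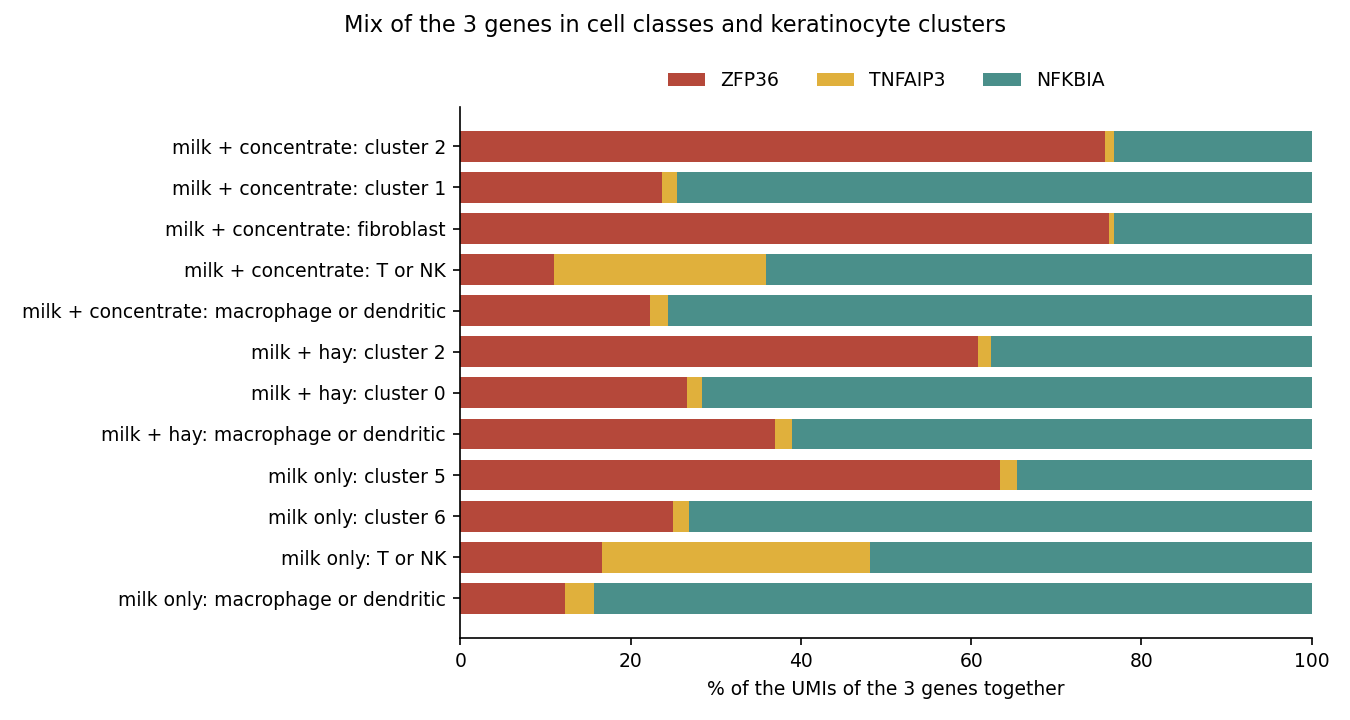
Share (%) of ZFP36, TNFAIP3 and NFKBIA in the UMIs of the 3 genes together, for chosen cell classes and keratinocyte clusters, with concentrate at the top, hay in the middle and milk only at the bottom. TNFAIP3 is a large share only in T or NK cells (25.0% with concentrate, 31.4% with milk only), and ZFP36 exceeds 60% in clusters 2 and 5 and in fibroblast-like cells.

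Across the 23 sums of a class or keratinocyte cluster in a library with at least 50 cells, the genes most like ZFP36 among 4216 candidates included BTG2, an antiproliferative early gene (Pearson r = 0.98 on log2(CPM + 1)), ATF3, a stress-induced transcription factor (0.97), JUN, an AP-1 subunit (0.93), and IRF1, an interferon response factor (0.92). The genes most like TNFAIP3 were PAF1, BIRC3, CSRNP1, SAT1 and STX11 (0.90 to 0.92). BIRC3, an inhibitor of apoptosis that takes part in TNF signalling, stood at 611 CPM in milk-only T or NK-like cells. The genes most like NFKBIA were MCL1, IFRD1, TRAF6, NFKBIZ and BTG2 (0.91 to 0.94). The sums share libraries and 18 of the 23 are keratinocyte clusters.

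The members were close to each other across keratinocytes but not across all classes. ZFP36 correlated with NFKBIA at 0.96 and with TNFAIP3 at 0.93 over the 18 keratinocyte sums, and at 0.89 and 0.73 over all 23. NFKBIA ranked as number 14 among the genes most like ZFP36, and TNFAIP3 as number 53.

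The other genes of the pathway were counted from lists that were chosen with earlier results known, without the members, and only where they had at least 10 CPM in a compared library. The lists overlap, so a gene can be counted in more than 1 list, and their counts are not separate results. Over all measured genes the median log2 ratio to milk only was 0.04 with concentrate and -0.17 with hay. Of all measured genes, 6.41% were at least 2-fold lower with concentrate and 9.95% with hay. With cluster 5 left out these shares were 5.19% with concentrate and 9.04% with hay. For the NF-kB subunits, 0 of 2 measured genes were at least 2-fold lower with concentrate and 1 of 2 with hay. That gene was REL, the c-Rel subunit, at 35.5 CPM with concentrate, 26.2 CPM with hay and 64.4 CPM with milk only, whereas NFKB1 stood at 11.4, 8.25 and 13.5 CPM.

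Both other measured genes of the IkB family, NFKBIZ and NFKBIB, were at least 2-fold lower with each solid feed. With cluster 5 left out, 1 of 2 was at least 2-fold lower with each feed. NFKBIZ, an atypical nuclear member induced by interleukin-17 and interleukin-1, was listed by family and not as an inhibitor like NFKBIA. It stood at 23.4 CPM with concentrate, 37.7 CPM with hay and 102 CPM with milk only. Of the kinase and adaptor steps, 1 of 5 was at least 2-fold lower with each solid feed. It was BIRC3, at 20.1 CPM with concentrate, 16.3 CPM with hay and 93.1 CPM with milk only, and RIPK1, TRAF3, TRAF6 and IRAK4 were within 2-fold. With cluster 5 left out, 0 of 6 measured kinase and adaptor genes were at least 2-fold lower with either feed.

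Of 6 receptor genes, 2 were at least 2-fold lower and 1 higher with each solid feed. LY96, the partner of TLR4 in sensing lipopolysaccharide, was the higher one, at 59.4 CPM with concentrate, 62.5 CPM with hay and 18.7 CPM with milk only. IL1RAP, the shared subunit of interleukin-1 family receptors, was lower, at 11.9, 10.4 and 26.7 CPM with concentrate, hay and milk only. The other lower gene on this list, IL36RN, encodes a secreted antagonist of the interleukin-36 receptor, and stood at 3.91, 1.75 and 15.9 CPM with concentrate, hay and milk only. The listed ligands with 10 CPM in keratinocytes were IL36A, an epithelial cytokine of the interleukin-1 family, and IL17F, and both were lower with solid feed. IL36A stood at 4.95 CPM with concentrate, 1.77 CPM with hay and 27.3 CPM with milk only, and IL17F is the lymphocyte transcript given above.

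The partners of the members differed less between libraries than the members. Of the A20 partners and related ubiquitin enzymes, 0 of 3 measured genes (TAX1BP1, CYLD and ITCH) passed 2-fold with either feed. TAX1BP1, an adaptor through which A20 acts, stood at 304 CPM with concentrate, 297 CPM with hay and 369 CPM with milk only. Of the mRNA decay factors that work with tristetraprolin, 0 of 8 passed 2-fold with concentrate and 0 of 7 with hay. CNOT1, the scaffold of the deadenylase complex, stood at 56.4 CPM with concentrate, 39.3 CPM with hay and 47.9 CPM with milk only.

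Of the genes that NF-kB induces, 4 of 5 were at least 2-fold lower with each feed, with medians of -2.12 with concentrate and -2.51 with hay on the log2 scale. BIRC3 and NFKBIZ, already counted above, are also on this list. GADD45B, a stress and NF-kB response gene, stood at 102 CPM with concentrate, 52.4 CPM with hay and 424 CPM with milk only, while TNFAIP8 stood at 53.9, 59.8 and 49.2 CPM. Of the AU-rich transcripts, 3 of 4 were lower with concentrate and 2 of 4 with hay. IER3, an early survival gene also counted among the immediate early genes below, stood at 47.9 CPM with concentrate, 42.0 CPM with hay and 206 CPM with milk only. With cluster 5 left out, 0 of 5 NF-kB induced genes were at least 2-fold lower with concentrate and 1 of 5 with hay, and of the AU-rich transcripts 0 of 3 with either feed.

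The immediate early genes were lower in the same libraries as the members. Of 12 measured, 10 were at least 2-fold lower with concentrate and 9 with hay, with medians of -1.74 and -1.81 on the log2 scale with concentrate and hay. JUN stood at 600 CPM with concentrate, 562 CPM with hay and 1985 CPM with milk only, and FOS, its AP-1 partner, at 491, 443 and 1338 CPM. With cluster 5 left out the medians were -0.05 with concentrate and 0.18 with hay. Of the other feedback genes, 3 of 4 were lower with each feed, among them SOCS3, an inhibitor of cytokine receptor signalling, at 5.57 CPM with concentrate, 3.62 CPM with hay and 33.3 CPM with milk only. With cluster 5 left out, 2 other feedback genes were measured and 0 were at least 2-fold lower with either feed, with medians of -0.11 with concentrate and -0.42 with hay. Of 9 heat shock genes 0 were lower with either feed, and 1 (HSPA6) was at least 2-fold higher with concentrate and 2 (HSPA6 and HSPH1) with hay, HSPA6 being named after its values were seen. HSP90AA1 stood at 2668 CPM with concentrate, 3739 CPM with hay and 2523 CPM with milk only. The part of the early gene response in the member levels was not tested.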

How the data were processed

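The deposited matrices held UMI counts per gene and barcode, made by the authors with Cell Ranger, of version 3.1 per the submitters' processing notes and 5.0.0 per the file headers. No coordinates are printed, since the genome build is not given in the sources used here. Groups came from the sample titles. Cells with at least 500 genes and under 20% mitochondrial UMIs were kept, and doublets were not called. Counts scaled to 10000 per cell (scanpy 1.11.5) gave 2000 variable genes, 30 components, 15 neighbours and Leiden clusters (leidenalg 0.10.2, resolution 0.6) without integration. A cluster took the name of the marker list with the highest median fold among lists with at least 3 markers at 20 CPM and at least 3 markers 2-fold above other cells, a procedure set after seeing the data. Clusters with no such list counted as other keratinocytes. UMIs were summed per class and library. Levels carry exact Poisson, shares Clopper-Pearson and ratios conditional binomial intervals (scipy 1.17.1), tested on simulated data, and 0 UMIs a limit of 3. No test was made. Cycling and differentiated-like classes had at least 20 cells in each library. Named genes were the members, for each member the 5 genes most correlated with it, and up to 6 genes per list by mean level, of which 1 is not reported here. Genes were chosen, and the 12 lists drawn up, with earlier results of these data known. Thinning drew each cell down to 2000 UMIs. Alternatives were other filters, scalings, cluster settings and cell weights.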

Additional observations from a re-analysis of the deposited data

Results flagged for a closer look

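For 4 results the concentrate and milk-only libraries stood in opposite order in different cell classes, and the difference between classes was not tested. In T or NK-like cells the log2 ratio of concentrate to milk only was 0.67 for ZFP36, 0.95 for TNFAIP3 and 1.58 for NFKBIA, against -3.30, -3.96 and -3.20 for the same genes in keratinocytes. In macrophage or dendritic-like cells the log2 ratio of ZFP36 was 0.81, also against -3.30 in keratinocytes. Ratios as high or higher were common within these classes. In T or NK-like cells, 1226 of 4126 measured genes stood at or above ZFP36, 802 at or above TNFAIP3 and 211 at or above NFKBIA. In macrophage or dendritic-like cells, 992 of 4553 stood at or above ZFP36. Each class is 1 sum in 1 library, with 40 T or NK-like and 50 macrophage or dendritic-like cells with concentrate. Among T or NK-like cells with at least 2263 UMIs, the intervals of the ZFP36 and TNFAIP3 ratios included equality.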

How the results depend on the processing

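No paired analysis was possible because each diet had 1 library. All ratios of solid feed to milk only in keratinocytes kept their direction under the alternatives run. Log2 ratios below are ordered ZFP36, TNFAIP3, NFKBIA where 3 are given. Without the cluster with the highest ZFP36 level they were -0.93, -1.81 and -1.53 for concentrate and -1.30, -1.73 and -1.46 for hay. Without the clusters led by early genes, an alternative chosen after seeing the data, they were -2.97, -2.73 and -2.02 for concentrate and -2.94, -2.85 and -2.20 for hay, and concentrate against hay was reversed for ZFP36 (-0.028) and NFKBIA (0.18). Both alternatives remove high cells by construction. With the mean of per-cell shares they were -2.70, -3.70 and -2.93 for concentrate against milk only, and 0.99, 0.22 and 0.23 for concentrate against hay, where TNFAIP3 and NFKBIA changed sign; the cause was not tested. With at least 1000 genes per cell ZFP36 was at -3.75 and NFKBIA at -3.36 for concentrate, -3.88 and -3.20 for hay, and 0.13 and -0.16 for concentrate against hay. With under 10% mitochondrial UMIs ZFP36 was at -2.99 for concentrate, -3.61 for hay and 0.63 for concentrate against hay, where TNFAIP3 stood at 0.06. With 50 abundant genes out of the totals ZFP36 and NFKBIA were at -3.23 and -3.13 for concentrate, -3.57 and -3.01 for hay, and, between concentrate and hay, 0.34 and -0.12. Scaling by the median of ratios, which shifts all log2 ratios by 0.04 for concentrate, 0.29 for hay and -0.25 for concentrate against hay, gave -3.26 and -3.16 for ZFP36 and NFKBIA with concentrate, -3.41, -3.57 and -2.85 for the 3 genes with hay, and 0.15 and -0.31 for ZFP36 and NFKBIA in concentrate against hay. A minimum of 2263 UMIs per cell moved 0 of the 9 log2 ratios beyond their counting interval. Other cluster settings moved 17 of 99 levels by class beyond it. Thinning to 1000 or 4000 UMIs moved all 18 shares, as depth sets them. Counts of listed genes moved by over 1.5 times in 33 of 72 cases; the cause was not tested.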

Other observations

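Stromal cells were found almost only with concentrate, so they could not be compared between diets. In 59 fibroblast-like cells, led by COL3A1, ZFP36 stood at 3355 CPM (3103 to 3622), TNFAIP3 at 25.6 CPM (8.32 to 59.8) and NFKBIA at 1024 CPM (887 to 1177). In 59 endothelial-like cells, led by APOA1 and MMRN1, ZFP36 stood at 763 CPM, NFKBIA at 1894 CPM, and TNFAIP3 had 0 UMIs. Within the concentrate library the fibroblast-like ZFP36 level was the highest of any class. Of 3 milk-only cells in the endothelial-like cluster, 1 cell held all 223 ZFP36 UMIs.

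Barcodes left out by the filters had lower ZFP36 and NFKBIA levels than the keratinocytes kept. In barcodes at or above the mitochondrial maximum, ZFP36 stood at 49.0 CPM with concentrate (1565 barcodes), 49.9 CPM with hay (1942 barcodes) and 410 CPM with milk only (510 barcodes), and NFKBIA at 78.8, 67.0 and 292 CPM. In barcodes under the gene minimum, ZFP36 stood at 28.8 CPM with concentrate, 30.9 CPM with hay and 74.1 CPM with milk only. The milk-only library was again the highest in both kinds of barcode.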
